A study of Mus musculus with 24 samples.

Results

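The genes described here are 36 genes of sterol synthesis, fatty acid synthesis and cholesterol efflux, out of 55291 gene names counted in cultured mouse lung cells isolated as fibroblasts. They were taken by name: 18 enzymes of the mevalonate and sterol pathway, the sterol carrier Stard4, 5 controllers of the sterol response element-binding proteins (SREBPs), 6 genes of fatty acid synthesis, 2 liver X receptors (LXRs), the LXR targets Abca1, Abcg1 and Mylip, and the oxysterol-making enzyme Ch25h. The list was drawn up with earlier results of these data known. All 36 had more than 10 counts on average and were tested. For the contrast of SREBP with LXR targets, the 18 enzymes, Stard4 and Insig1 make up 20 sterol-class SREBP targets, and Srebf1, Abca1, Abcg1 and Mylip make up 4 LXR targets.

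Pulmonary fibroblasts came from 4- to 8-week-old C57BL/6 mice, either WT or TLR4-/-, with the cells of each genotype isolated from a pool of 3 to 4 lungs. At passages 3 to 6 they spent a night in reduced-serum medium and were then treated for 24 h with PBS, 1 μg/mL rmCIRP (recombinant mouse cold-inducible RNA-binding protein, a ligand of TLR4 when outside cells), 2 ng/mL rmTGF-β1, or both proteins together. Each of the 8 conditions had 3 libraries of total RNA, 24 in all, and each library had 29853346 to 39664606 reads counted on genes. No label says that the 3 libraries of a condition came from separate cultures, so p-values measure only the spread between these libraries, which may be technical.

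Cells make cholesterol from acetyl-CoA through mevalonate, squalene and lanosterol. When sterols are scarce, SCAP escorts SREBP-2 from the endoplasmic reticulum to the Golgi, where it is cleaved into an active factor that switches on nearly every enzyme of the pathway, while INSIG proteins and 25-hydroxycholesterol, the product of CH25H, hold SCAP back. When sterols are plentiful, oxysterols activate LXRs, which raise cholesterol export through ABCA1 and ABCG1 and the degradation of lipoprotein receptors through MYLIP, and which also raise SREBP-1c, the driver of fatty acid synthesis.

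Several properties of the libraries bear on these genes. Tlr4 mRNA was not lower in the libraries labelled TLR4-/-: it averaged 903 ± 20.2 normalized counts (SD, n = 3) there with PBS and 759 ± 41.9 in WT libraries, so those libraries are called by their label throughout. All 8 fibroblast markers were read in every condition, with summed normalized counts of 391670 to 567910 per library. In WT libraries that sum was 499900 to 541740 with PBS and 399220 to 438010 with rmCIRP, and the sum of 4 smooth muscle and pericyte markers was 36689 to 39021 and 26800 to 29259, without overlap in either list. All 13 macrophage markers were also read in every condition, and their summed normalized count was 72970 to 95007 in WT libraries and 312170 to 395740 in libraries labelled TLR4-/-. Within WT libraries that sum was 87541 to 95007 with PBS and 74568 to 78839 with rmCIRP, ranges that did not overlap. Epithelial markers summed to at most 107.93 normalized counts in any library. The fibroblast and macrophage sums rest mostly on few genes. In WT libraries with PBS, Col1a1 and Col1a2 averaged 242160 and 144410 of a mean fibroblast sum of 519620. Lyz2 averaged 78175 of a mean macrophage sum of 92481. In libraries labelled TLR4-/- with PBS, Lyz2 averaged 281640 of a mean macrophage sum of 342390, and Col1a1 averaged 241190. Levels of other genes are therefore those of mixed cultures. With rmCIRP in WT cells, 2 of the 8 fibroblast markers rose and 5 fell, and 4 of the 13 macrophage markers rose and 9 fell. In bulk RNA, fewer cells of a type and less RNA per cell cannot be told apart. The third library labelled TLR4-/- with both proteins stood apart from its replicates, with a chi-square per degree of freedom of 50.6 against the first and 34.6 against the second, where the median of the 24 replicate pairs was 5.11. The third with rmTGF-β1 alone differed less, at 13.1 and 17.2. Counts of called genes that use these libraries are given with and without them.

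Levels are normalized counts, the reads on a gene divided by the library's size factor. Divided also by the length of the gene's exons in kilobases, the highest mean levels in WT cells with PBS were those of Ch25h at 1735 per kb, the fatty acid desaturases Scd2 at 1393 and Scd1 at 1289.6, and Acly, which supplies cytosolic acetyl-CoA, at 1108. Among the sterol enzymes, Sc5d was highest at 567 per kb and Fdps lowest at 14.1. The cholesterol transporter Abca1 stood at 246 per kb and Abcg1 at 22.4. The value for Fdps is uncertain, because processed pseudogenes share its sequence, as is that of Acat2, which overlaps a gene on the opposite strand, since the strand setting of the counting is not given in the sources used here.

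Addition of rmCIRP to WT cells was accompanied by lower mRNA of most sterol enzymes and by a higher level of Ch25h. Of the 36 genes, 3 rose and 21 fell at an adjusted p under 0.1 in the quasi-likelihood test of edgeR, adjusted by Benjamini-Hochberg, where 43.9% of all 16258 genes tested passed, 19.8% higher and 24.1% lower. The 36 genes and the further lists below were chosen with earlier results of these data known. Their shares beside all genes are therefore not independent of the data. Of the 20 sterol-class genes, 16 fell and 1 rose, and 19 of their 20 estimates were below 0. Their median log2 fold change was -0.27, against -0.02 for all genes tested. The 4 LXR targets had a median of 0.13, and 1 of them, Mylip, passed the test. Without the first PBS library that LXR median was 0.04. It includes Srebf1, whose counts are per gene symbol and do not part SREBP-1c from other Srebf1 transcripts. The 6 fatty acid genes had a median of 0.02, with 2 lower. The plot of responses by genotype label shows each gene with its standard error.

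**Figure D1:**
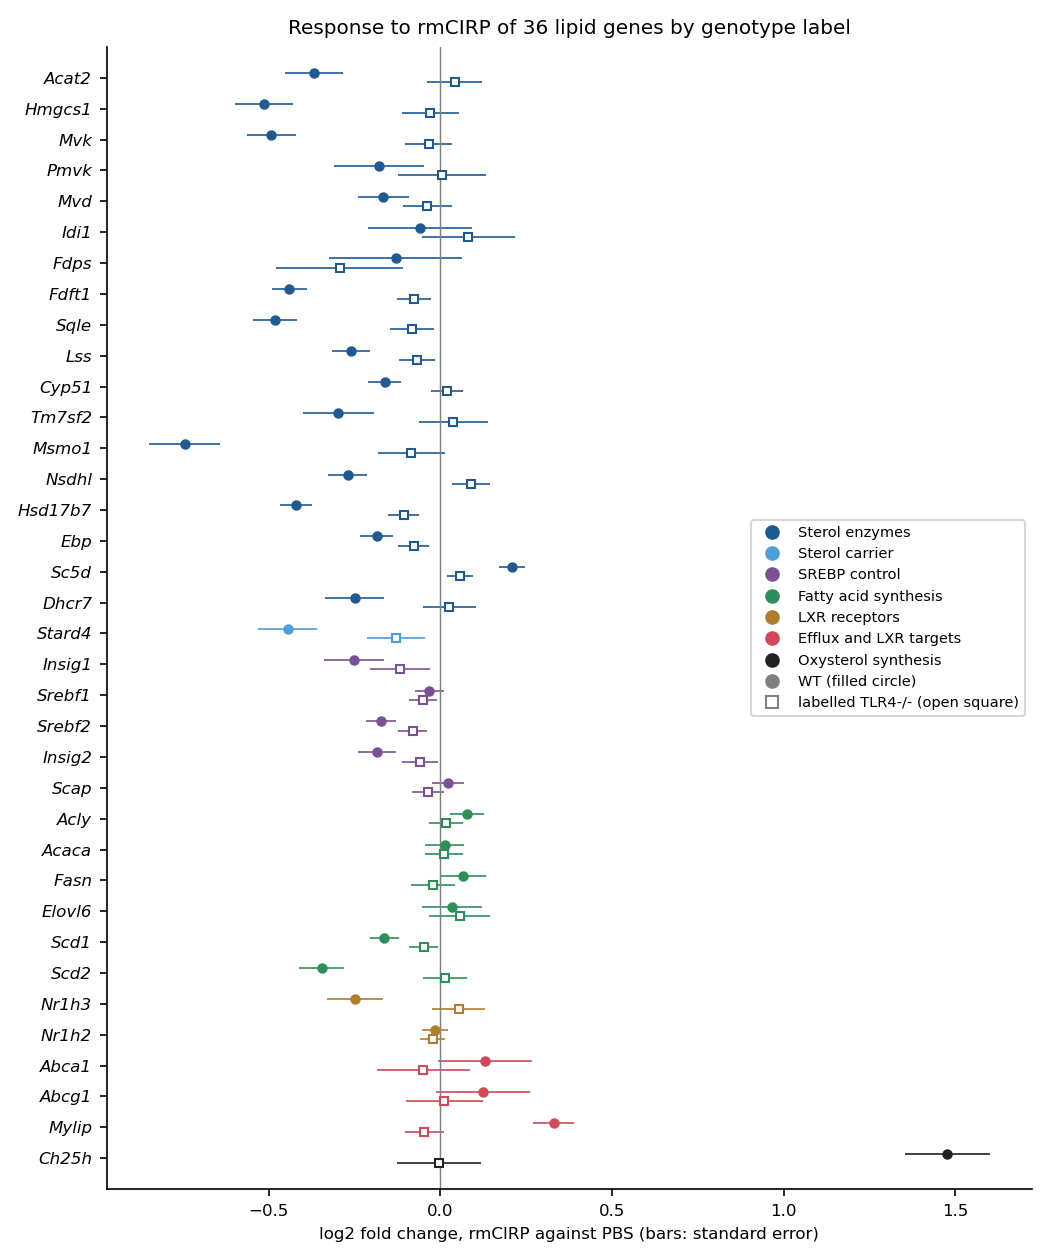
Log2 fold change with rmCIRP against PBS (horizontal axis) of the 36 genes (rows, grouped and coloured by role), in WT cells (filled circles) and in cells labelled TLR4-/- (open squares), each from 3 libraries per condition with the standard error as a bar. In WT cells most sterol enzymes lie left of 0, down to -0.74 for Msmo1, and Ch25h lies at 1.48, whereas the open squares lie between -0.29 and 0.09.

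Of the 7 early enzymes, from acetyl-CoA to farnesyl diphosphate, 4 fell and 3 did not pass, where 24.1% of all genes fell. Hmgcs1, which condenses acetyl units into the precursor of mevalonate, read 1425, 1326 and 1457 normalized counts in the 3 WT libraries with PBS and 986, 961 and 1013 with rmCIRP. Mvk, mevalonate kinase, read 621, 556 and 596 with PBS and 429.8, 417 and 419 with rmCIRP. For both genes every rmCIRP library was below every PBS library. Hmgcs1 fell by 29.9% (log2 fold change -0.51 ± 0.08, SE, adjusted p = 5.06e-05, edgeR) and Mvk by 28.9% (log2 fold change -0.49 ± 0.07, SE, adjusted p = 9.01e-06). Acat2, which joins acetyl-CoA units at the entry to the pathway, fell by 22.5% and Mvd, which makes isopentenyl diphosphate, by 10.9%, although the call for Mvd was lost when either the first or the third PBS library or any rmCIRP library was left out. The log2 fold changes of the intermediate enzymes Pmvk, Idi1 and Fdps were -0.18, -0.06 and -0.13, none past the test.

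The committed steps to squalene and lanosterol were also lower. Fdft1, squalene synthase, read 1116, 1008 and 952 normalized counts with PBS and 739, 746 and 793 with rmCIRP in WT libraries. Sqle, squalene epoxidase and a rate-limiting enzyme of the later pathway, read 1387, 1317 and 1382 with PBS and 961, 958 and 1017 with rmCIRP. The groups did not overlap for either gene. Fdft1 fell by 26.3% (log2 fold change -0.44 ± 0.05, SE, adjusted p = 5.53e-07) and Sqle by 28.4% (log2 fold change -0.48 ± 0.06, SE, adjusted p = 3.17e-06), and Lss, which closes the ring of lanosterol, fell by 16.5%.

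Msmo1, the methyl oxidase that begins removal of the methyl groups at carbon 4 of the sterol ring, changed most among the enzymes. It read 1139.5, 1063 and 1123 normalized counts with PBS and 638, 641 and 712 with rmCIRP, and fell by 40.3% (log2 fold change -0.74 ± 0.10, SE, adjusted p = 6.27e-06). Hsd17b7, a reductase of the same demethylation complex, read 1507, 1408 and 1413 with PBS and 1066, 1065 and 1115 with rmCIRP and fell by 25.3% (log2 fold change -0.42 ± 0.05, SE, adjusted p = 2.86e-07). In both genes the highest rmCIRP library lay well under the lowest PBS library. The other members of this stretch, Nsdhl, Cyp51, Tm7sf2 and Ebp, fell by 17.1%, 10.6%, 18.6% and 12.1%. Tm7sf2 no longer passed without the third PBS or the second rmCIRP library, and Cyp51 no longer passed without the first PBS library.

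The final desaturase and reductase moved in opposite directions. Sc5d, the sterol C5 desaturase, was the only sterol enzyme that rose, from 2804, 2775 and 2692 normalized counts with PBS to 3176, 3190.4 and 3227 with rmCIRP (log2 fold change 0.21 ± 0.04, SE, adjusted p = 0.000135). Dhcr7, which acts after it to make cholesterol, fell by 15.9% (log2 fold change -0.25 ± 0.09, SE, adjusted p = 0.0258), a call lost without the second PBS or the second rmCIRP library. Stard4, which carries cholesterol through the cytosol and is itself a sterol-regulated gene, read 705, 560.1 and 673 with PBS and 475, 476 and 478 with rmCIRP. All of the rmCIRP values for Stard4 lay below the PBS values, and it fell by 26.5% (log2 fold change -0.44 ± 0.09, SE, adjusted p = 0.000315).

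The promoters of most of these enzymes that had a promoter window hold a short motif. RefSeq windows of 250 bases before to 50 after the annotated start (GRCm38.p6) were at hand for 29 of the 36 genes, and both strands were searched for 3 motifs. The letters CCAAT, the box bound by NF-Y, a partner of SREBPs at sterol genes, occurred in 15 of the 16 sterol-class genes with a window (93.8%), against 41.1% of 27025 genes. The sterol response element letters TCACNCCAC occurred in 1 of the 29 genes, Hmgcs1, against 1.44% of all genes. The sterol-class genes were grouped as SREBP targets, so their CCAAT share is not independent of how they were chosen. A match describes letters in a window and is not a binding site that was measured. Sqle and Fdft1, which also fell, had no window or no match. Msmo1, Mvk and Hsd17b7, which were among the enzymes that fell most, are shown from base -120 to base -1 before the start, each along the strand of its gene, with CCAAT or its reverse complement in capitals, and Hmgcs1 is shown around its sterol element, in capitals. The positions are Msmo1 at chr8:64733579-64733698 (minus strand), Mvk at chr5:114444149-114444268 (plus strand), Hsd17b7 at chr1:169969206-169969325 (minus strand) and Hmgcs1 at chr13:119690189-119690247 (plus strand), all just upstream of the first exon.
Msmo1: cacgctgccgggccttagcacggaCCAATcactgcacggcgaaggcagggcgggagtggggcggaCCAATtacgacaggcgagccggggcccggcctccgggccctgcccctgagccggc
Mvk: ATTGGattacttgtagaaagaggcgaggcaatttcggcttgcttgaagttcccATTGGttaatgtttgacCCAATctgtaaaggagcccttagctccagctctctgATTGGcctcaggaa
Hsd17b7: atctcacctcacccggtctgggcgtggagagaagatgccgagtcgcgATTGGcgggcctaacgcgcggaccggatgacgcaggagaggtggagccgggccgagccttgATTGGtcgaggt
Hmgcs1: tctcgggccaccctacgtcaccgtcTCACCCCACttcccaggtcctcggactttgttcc
Sc5d, which rose, also holds the CCAAT letters, as do Idi1 and Pmvk, which did not pass the test. The plot of motif positions gives every match, and no match of one motif overlapped that of another.

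**Figure D2:**
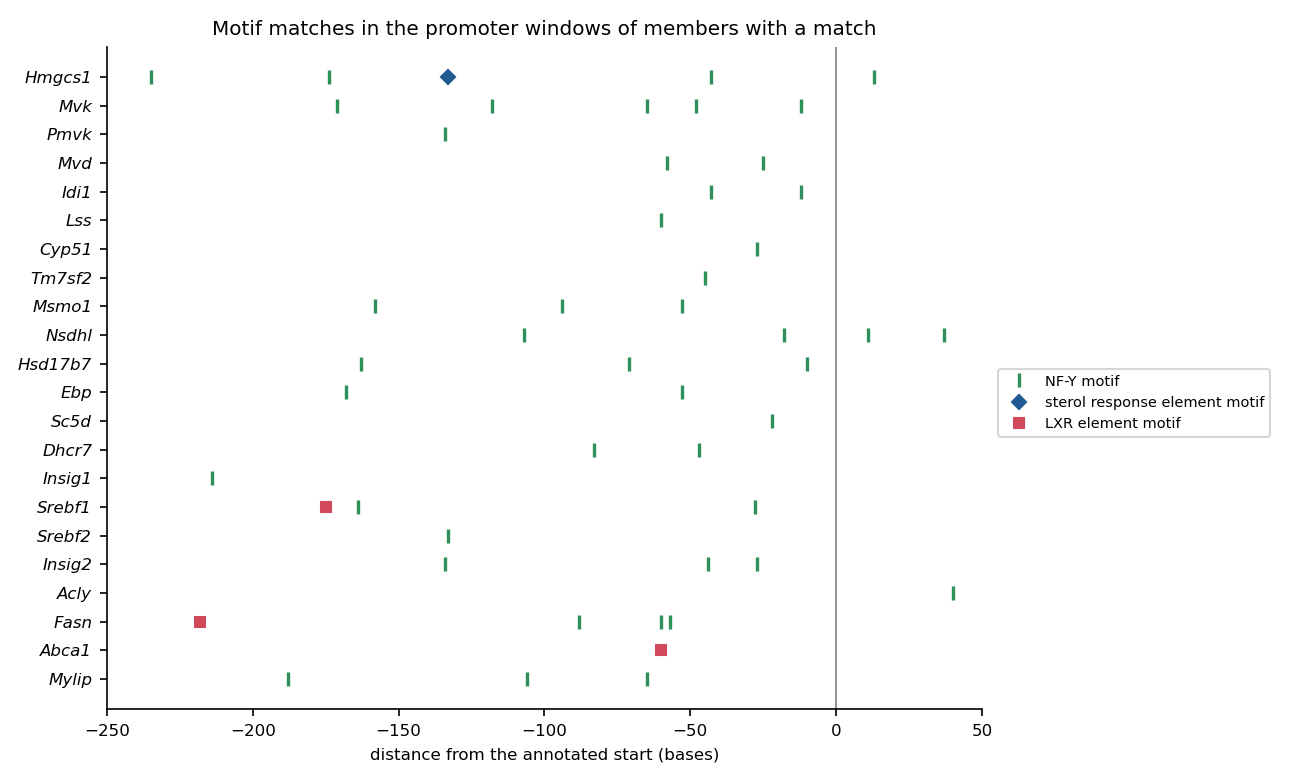
Positions of motif matches (horizontal axis, bases from the annotated start at 0) in the promoter windows of the 22 genes with any match (rows), where green ticks are NF-Y motifs, the blue diamond is the sterol response element motif and red squares are LXR element motifs. Sterol enzymes carry 1 to 5 NF-Y ticks each, and red squares appear in Srebf1, Fasn and Abca1 only.

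Of the 5 controllers of SREBP, 3 fell and 2 did not pass, where 24.1% of all genes fell. Insig1, an SREBP target that retains SCAP, read 1049, 891 and 1015 normalized counts in WT libraries with PBS and 816, 799 and 874 with rmCIRP, and fell by 16% (log2 fold change -0.25 ± 0.09, SE, adjusted p = 0.0258), a call lost without the first PBS or the second rmCIRP library. Insig2, which retains SCAP in the same way, read 1028, 949 and 1033 with PBS and 852, 888 and 917 with rmCIRP and fell by 12% (log2 fold change -0.18 ± 0.05, SE, adjusted p = 0.0101). Srebf2, which encodes SREBP-2, read 3068, 2932 and 2969 with PBS and 2668, 2502 and 2812 with rmCIRP and fell by 11.3% (log2 fold change -0.17 ± 0.04, SE, adjusted p = 0.00314). All 3 genes had every rmCIRP library below every PBS library. For Srebf1, which encodes SREBP-1, and for Scap itself the log2 fold changes were -0.03 ± 0.04 and 0.02 ± 0.05 (SE), neither past the test.

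Of the 6 fatty acid genes among the 36, 2 fell and 4 did not pass, where 24.1% of all genes fell. Fasn, fatty acid synthase, read 8424, 8049.9 and 7778 normalized counts with PBS and 8666, 8359 and 8471 with rmCIRP in WT libraries, overlapping ranges with a log2 fold change of 0.07 ± 0.07 (SE). Acly, Acaca and Elovl6, which supply, activate and elongate the acyl chain, also did not pass, with log2 fold changes of 0.08, 0.01 and 0.03. The genes that fell were the desaturases, which place the double bond in stearate. Scd2 read 8133, 7019 and 7678 with PBS and 5665, 6029 and 6338 with rmCIRP and fell by 21.3% (log2 fold change -0.35 ± 0.06, SE, adjusted p = 0.000203). Scd1 read 6209.6, 6409 and 6307 with PBS and 5714, 5465 and 5783 with rmCIRP and fell by 10.7% (log2 fold change -0.16 ± 0.04, SE, adjusted p = 0.00381). Neither desaturase had overlapping groups. Of 9 further fatty acid genes tested from a list of 10, 6 fell and none rose, with a median log2 fold change of -0.28, and all 9 estimates were below 0. The largest of these changes were in Elovl5 (-0.47), which elongates polyunsaturated chains, Acss2 (-0.47), which activates acetate, and the desaturase Fads2 (-0.32), as log2 fold changes.

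On the LXR side, the receptor and its targets did not move alike. Nr1h3, which encodes LXRα, read 166, 166 and 148 normalized counts with PBS and 137, 135 and 133 with rmCIRP in WT libraries and fell by 15.8% (log2 fold change -0.25 ± 0.08, SE, adjusted p = 0.0313). The groups did not overlap, but the call was lost without the first or second PBS or the third rmCIRP library and was not made by DESeq2 (adjusted p = 0.106). Nr1h2, which encodes LXRβ, had a log2 fold change of -0.02 ± 0.04 (SE). Mylip, a ubiquitin ligase that LXRs induce, read 348, 344 and 357 with PBS and 464, 428 and 434 with rmCIRP and rose 1.26-fold (log2 fold change 0.33 ± 0.06, SE, adjusted p = 0.000138). Abca1, which loads cholesterol onto apolipoprotein A-I, read 2241, 2802 and 2606 with PBS and 2999.8, 2598 and 2807 with rmCIRP, and Abcg1, which exports cholesterol to lipoproteins, read 136, 177 and 179 and 188, 176 and 173. Both transporters overlapped between groups, with log2 fold changes of 0.13 ± 0.14 and 0.12 ± 0.14 (SE) that did not pass. Of 6 further LXR partners and targets, 1 fell, the retinoid partner Rxra (-0.18, log2), and none rose, where 24.1% of all genes fell and 19.8% rose.

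The letters of an LXR element, GGTNA repeated after a gap of 5 bases, were found on either strand in the windows of 3 of the 29 genes (10.3%), against 0.818% of 27025 genes. Abca1 and Srebf1, which hold the letters, were grouped as LXR targets, so this share is not independent of how the genes were chosen. Each match is shown along the strand of its gene with its flanks, and the capitals, which mark the match, are its reverse complement. Abca1 lies at chr4:53159923-53159987 (minus strand) with the match at -67 to -53, Srebf1 at chr11:60210614-60210678 (minus strand) with the match at -182 to -168, and Fasn at chr11:120824733-120824797 (minus strand) with the match at -225 to -211, all before the start of the transcript.
Abca1: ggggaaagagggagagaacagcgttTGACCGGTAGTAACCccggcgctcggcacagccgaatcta
Srebf1: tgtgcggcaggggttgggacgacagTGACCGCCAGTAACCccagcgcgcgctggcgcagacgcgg
Fasn: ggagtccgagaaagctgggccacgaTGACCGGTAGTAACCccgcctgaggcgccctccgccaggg
None of these 3 genes passed the test with rmCIRP against PBS in WT cells. Mylip, the LXR target that did pass, had a window without a match to these letters.

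Ch25h showed the largest change of the 36 genes. It read 1879, 2888 and 2453 normalized counts in WT libraries with PBS and 7314, 6267 and 6587 with rmCIRP, and every rmCIRP library was above every PBS library. It rose 2.78-fold (log2 fold change 1.48 ± 0.12, SE, adjusted p = 2.78e-09, edgeR's quasi-likelihood test). The enzyme makes 25-hydroxycholesterol, a soluble oxysterol of innate immune responses. Other genes that handle oxysterols and cholesterol esters were tested from a list of 10, of which 9 could be tested. Of these, 2 rose and 5 fell, where 19.8% of all genes rose and 24.1% fell. Cyp7b1, which hydroxylates 25-hydroxycholesterol further, averaged 362 ± 40.2 normalized counts with PBS and 1131 ± 122 with rmCIRP (SD, n = 3) and rose 3.12-fold (log2 fold change 1.64 ± 0.11, SE, adjusted p = 1.11e-10). Gpr183, the receptor for the resulting dihydroxylated oxysterols, averaged 12.7 ± 6.4 with PBS and 1.7 ± 0.553 with rmCIRP (log2 fold change -2.81 ± 0.62, SE). Cyp27a1, which makes 27-hydroxycholesterol, fell (log2 fold change -0.94 ± 0.22, SE, adjusted p = 0.00146). Of 4 further sterol-pathway genes, Ggps1 rose (0.17, log2) and none fell. Among the macrophage markers 4 rose and 9 fell in the same comparison, among the 8 fibroblast markers 2 rose and 5 fell, and among the 4 smooth muscle and pericyte markers 2 fell. Their part in the changes of Ch25h and the sterol enzymes was not tested.

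**Figure D3:**
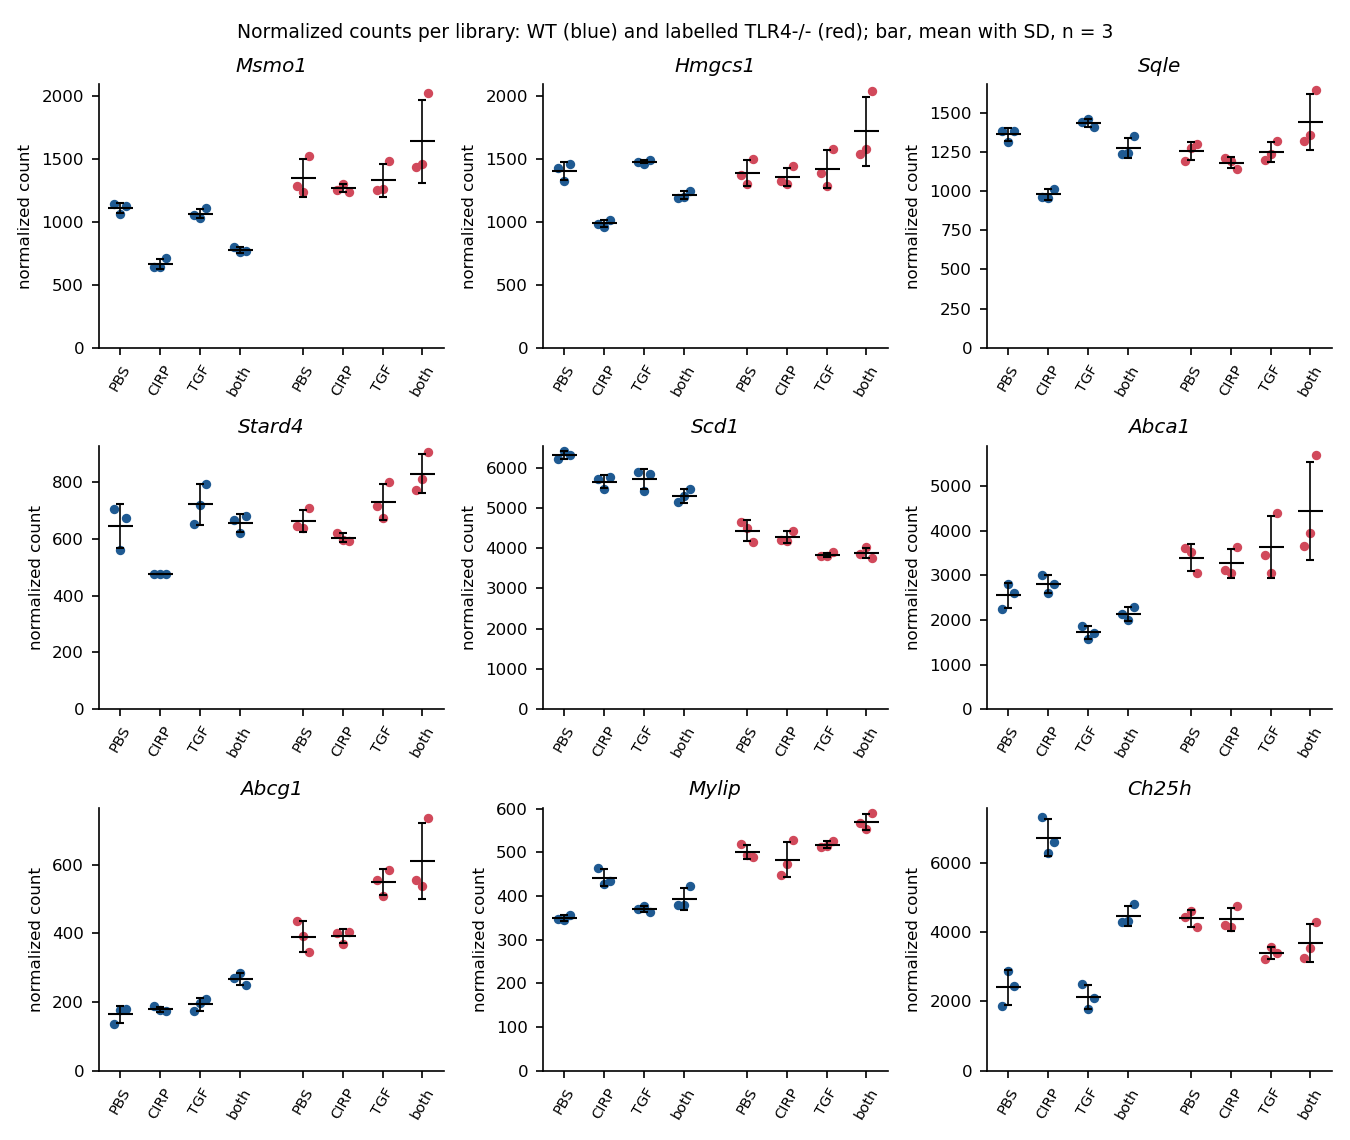
Normalized counts (vertical axes, from 0) of 9 genes in each of the 24 libraries, by treatment (PBS, rmCIRP, rmTGF-β1, both), with WT libraries in blue and libraries labelled TLR4-/- in red, and black bars for the mean and SD of 3 libraries. Msmo1, Hmgcs1, Sqle and Stard4 dip in the blue rmCIRP column, where Ch25h reaches 7314, 6267 and 6587, and the red columns of PBS and rmCIRP overlap for 8 of the 9 genes, Stard4 excepted.

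In cells labelled TLR4-/-, rmCIRP against PBS gave no call among the 36 genes, and none among the 16258 genes tested (0% called), with edgeR's quasi-likelihood test. The lowest adjusted p of that test over all genes was 0.104, just above the threshold of 0.1. At an unadjusted p under 0.05 there were 1136 genes (6.99%), among them 1 of the 36, Hsd17b7, and DESeq2 also called none of the 36. The log2 fold changes of the 36 lay between -0.29 and 0.09, with a median of -0.04 for the 20 sterol-class genes. Msmo1 read 1281, 1237 and 1519 normalized counts with PBS and 1253, 1299 and 1239 with rmCIRP in those libraries, a log2 fold change of -0.09 ± 0.10 (SE). Ch25h read 4441, 4614 and 4131 with PBS and 4194, 4158 and 4747 with rmCIRP (-0.00 ± 0.12), and Mylip read 519.6, 495 and 489 and 448, 474 and 528 (-0.05 ± 0.06). These groups overlapped for all 3 genes.

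Because a call in one genotype and none in the other does not show a difference, the response itself was compared between genotypes. The difference passed for 18 of the 36 genes, where 31.4% of all genes passed, 17.1% with a more positive and 14.3% with a more negative response in cells labelled TLR4-/-. For 15 genes the response was more positive there and for 3 more negative. Of the 20 sterol-class genes, 13 passed as more positive and 1, Sc5d, as more negative. The largest were Ch25h, whose log2 response was 1.48 in WT cells and -0.00 in the others (difference -1.48 ± 0.17, SE, adjusted p = 1.1e-06), Msmo1, with -0.74 and -0.09 (difference 0.66 ± 0.14, adjusted p = 0.00161), and Hmgcs1, with -0.51 and -0.03 (difference 0.48 ± 0.12, adjusted p = 0.00435). Mylip, the LXR target, differed the other way, with 0.33 and -0.05 (difference -0.38 ± 0.08, adjusted p = 0.00179). Without the second WT library with rmCIRP the count was 12, with 9 more positive. The macrophage markers differed in the same comparison, 7 more positive and 4 more negative of 13, as did the fibroblast markers, 4 more positive and 1 more negative of 8, and their part was not tested.

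In WT cells rmTGF-β1 alone gave fewer calls than rmCIRP alone, both among these genes and among all genes tested. Against PBS, 1 rose and 5 fell by edgeR's quasi-likelihood test, where 12.4% of all genes passed, 5.77% higher and 6.65% lower. Abca1 changed most, from 2241, 2802 and 2606 normalized counts with PBS to 1871, 1575 and 1716 with rmTGF-β1, groups that did not overlap, and fell by 32.7% (log2 fold change -0.57 ± 0.14, SE, adjusted p = 0.0123). Nr1h3 read 133, 129 and 112 with rmTGF-β1, all below the PBS libraries, and fell by 22.3% (log2 fold change -0.36 ± 0.08, SE, adjusted p = 0.00634). Sc5d, which rose with rmCIRP, read 2366, 2298 and 2356 with rmTGF-β1 and fell by 15.4% (log2 fold change -0.24 ± 0.04, SE, adjusted p = 0.000248). Scd1 fell by 9.51% and Insig2 by 10.8%, the call for Scd1 being lost without the second PBS or the second rmTGF-β1 library. Cyp51, the lanosterol demethylase, rose by 10.6%. The calls for Insig2 and Cyp51 were each lost when any of 5 of the 6 libraries was left out, and without the second rmTGF-β1 library the count was 3. The median of the 20 sterol-class genes was 0.004 on the log2 scale. Abcg1 and Ch25h had log2 fold changes of 0.24 ± 0.13 and -0.18 ± 0.13 (SE) and did not pass.

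In cells labelled TLR4-/-, rmTGF-β1 against PBS gave 2 higher and 9 lower of the 36 genes, where 23.9% of all genes passed, 12.1% higher and 11.7% lower. Abcg1 rose from 435, 391 and 344 to 556, 510.1 and 586 normalized counts, 1.42-fold (log2 fold change 0.50 ± 0.11, SE, adjusted p = 0.00232), and Cyp51 rose by 17.3%. Sc5d fell by 17.1%, Hsd17b7 by 16.5%, Insig2 by 16.1% and Scd1 by 13%. Ch25h fell by 22.6% (log2 fold change -0.37 ± 0.12, SE, adjusted p = 0.0397), a call lost without the second PBS library or the first rmTGF-β1 library, and without either of these the count of calls was 6 in place of 11. Without the third rmTGF-β1 library the count was 9, and the log2 fold change was 0.46 for Abcg1, 0.21 for Cyp51 and -0.25 for Sc5d. Cyp51, Insig2, Sc5d and Scd1 passed in both genotypes in the same direction, 4 of the 6 called in WT cells and 4 of the 11 here. The share of all genes that passed in both genotypes was not counted. Abca1 did not pass the test in these libraries. It read 3617, 3525 and 3047 with PBS and 3464, 3054 and 4394 with rmTGF-β1, a log2 fold change of 0.11 ± 0.14 (SE), which was -0.05 without the third rmTGF-β1 library. Compared between the genotype labels, the rmTGF-β1 response differed past the test for none of the 36 genes, where 0.0861% of all genes passed, 0.0369% more positive and 0.0492% more negative, nor with DESeq2. At an unadjusted p under 0.05 the difference passed for 3 of the 36, where 10.4% of all genes passed. It was 0.68 ± 0.19 (SE) for Abca1 (adjusted p = 0.191) and 0.47 ± 0.11 for Nr1h3 (adjusted p = 0.133), and without both libraries numbered 3 and labelled TLR4-/- that had received rmTGF-β1, Abca1 was at 0.52 (adjusted p = 0.0727), past the threshold.

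When rmCIRP was added to rmTGF-β1 in WT cells, sterol enzymes were again lower. Against rmTGF-β1 alone 4 of the 36 genes rose and 13 fell, where 42.2% of all genes passed, 20.5% higher and 21.7% lower. Of the 20 sterol-class genes 10 fell and none rose, with a median log2 fold change of -0.18 against -0.01 for all genes. Msmo1 read 1057, 1032 and 1106 normalized counts with rmTGF-β1 and 802, 761 and 767 with both (log2 fold change -0.46 ± 0.10, SE, adjusted p = 0.00129), and Hsd17b7 read 1329, 1336 and 1339.6 and 968, 1011 and 998 (log2 fold change -0.43 ± 0.05, SE, adjusted p = 2.37e-07). Both genes fell without overlap. Of the 13 macrophage markers 4 rose and 6 fell in the same comparison, of the 8 fibroblast markers 1 rose and 4 fell, and their part was not tested. This comparison shares no library with rmCIRP against PBS, and 14 genes passed in both with the same direction, 14 of the 24 called there and 14 of the 17 called here. Of all genes, 43.9% passed there and 42.2% here, and the share that passed in both was not counted. The 4 genes that rose were Ch25h, Abcg1, Abca1 and Acly. Ch25h read 2498, 1791 and 2083 in the rmTGF-β1 libraries and 4285, 4306 and 4809 in those with both proteins, and rose 2.1-fold (log2 fold change 1.07 ± 0.12, SE, adjusted p = 5.83e-07). Abcg1 read 172, 197 and 209.6 and 270.2, 283 and 249 and rose 1.38-fold (log2 fold change 0.46 ± 0.13, SE, adjusted p = 0.00656). Abca1 read 1871, 1575 and 1716 and 2126, 1990.4 and 2294 (log2 fold change 0.31 ± 0.14, SE, adjusted p = 0.0964), without overlap, and its call was lost when the second or the third rmTGF-β1 library or the first or the third library with both was left out.

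Seen from the other side, rmTGF-β1 added to rmCIRP in WT cells gave 11 higher and 8 lower of the 36 genes against rmCIRP alone, where 20.5% of all genes passed, 10% higher and 10.5% lower. Dhcr7 rose by 42% (log2 fold change 0.51 ± 0.09, SE, adjusted p = 0.000209), Stard4 by 37.3% and Sqle by 30.1%, and 8 of the 20 sterol-class genes rose while 2 fell, Sc5d and Hsd17b7, the call for Hsd17b7 being lost when any 1 of the 6 libraries was left out. Sqle read 961, 958 and 1017 normalized counts with rmCIRP and 1235, 1243 and 1352 with both, and Stard4 read 475, 476 and 478 and 668, 619.8 and 680.4. The libraries with both proteins were above those with rmCIRP in each case. Ch25h fell by 33.7% (log2 fold change -0.59 ± 0.12, SE, adjusted p = 0.00143), Sc5d by 28.9% and Abca1 by 23.9%, the last a call lost on leaving out 4 of the 6 libraries in turn. Abcg1 rose 1.49-fold (log2 fold change 0.58 ± 0.13, SE, adjusted p = 0.00329). When 1 of the 6 libraries was left out in turn, the lower calls went from 8 to between 4 and 7, and stayed within 1.5 times in 1 case only. They were 4 without the third rmCIRP library or the second with both. A test of the interaction, whether the effect of one protein depended on the other in WT cells, passed for none of the 36 genes, where 0.0492% of all genes passed by edgeR, 0.0369% positive and 0.0123% negative. Its estimates were 0.41 ± 0.12 for Dhcr7, 0.31 ± 0.09 for Sqle, 0.28 ± 0.15 for Msmo1 and -0.41 ± 0.17 for Ch25h, on the log2 scale with SE. At an unadjusted p under 0.05 the interaction passed for 8 of the 36, where 5.64% of all genes passed, and DESeq2 called 1 of the 36 at the adjusted threshold.

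In cells labelled TLR4-/-, both proteins against rmTGF-β1 gave 1 higher and none lower of the 36 genes, where 2.69% of all genes passed, 1.56% higher and 1.13% lower. The 1 was Fasn, which read 8187, 7942 and 9720.4 normalized counts with rmTGF-β1 and 9039, 10237 and 11121 with both (log2 fold change 0.23 ± 0.07, SE, adjusted p = 0.0935), overlapping groups, and it lost the call without the first or the second rmTGF-β1 library or the second or the third library with both. Msmo1 read 1249, 1259 and 1479.9 and 1433, 1461 and 2019, Hmgcs1 1389, 1287 and 1581 and 1539, 1576 and 2037. In both the third library with both proteins was the highest of all 24, and their log2 fold changes of 0.29 ± 0.10 and 0.27 ± 0.08 (SE) did not pass. Leaving out the third rmTGF-β1 library gave 12 higher, leaving out the first library with both 11, leaving out the third with both none, and leaving out both libraries numbered 3 gave 2. Against rmCIRP alone, both proteins gave 15 higher and 4 lower, where 32.8% of all genes passed, 17.2% higher and 15.6% lower. Abcg1 rose 1.55-fold (log2 fold change 0.63 ± 0.11, SE, adjusted p = 0.000244), and Stard4, Insig1, Abca1 and Msmo1 rose by 36.7%, 35.1%, 35.2% and 28.9%. Without the third library with both proteins the count was 16, and the log2 fold change went from 0.37 to 0.19 for Msmo1, from 0.43 to 0.29 for Insig1, from 0.45 to 0.39 for Stard4 and from 0.63 to 0.48 for Abcg1, all still past the test. Of 4 endothelial markers 3 were higher in this comparison, with summed normalized counts of 245.93 to 295.9 with rmCIRP and 308.82 to 736.52 with both, and their part was not tested. With both libraries numbered 3 left out the count was 17 in place of 19, and Abca1 was not called without the third library with both proteins (log2 0.22, adjusted p = 0.205). Against rmCIRP alone, 14 genes passed in both genotypes, 14 of 19 in each, and 12 of them moved in the same direction. The other genes, Abca1 and Mylip, passed as lower in WT cells and as higher in cells labelled TLR4-/-, but the WT call was lost on leaving out 4 of the 6 libraries in turn for Abca1 and 5 of the 6 for Mylip. The difference between genotypes was not tested for this comparison, and the share of all genes that passed in both was not counted. The heat map of all comparisons shows these changes side by side.

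**Figure D4:**
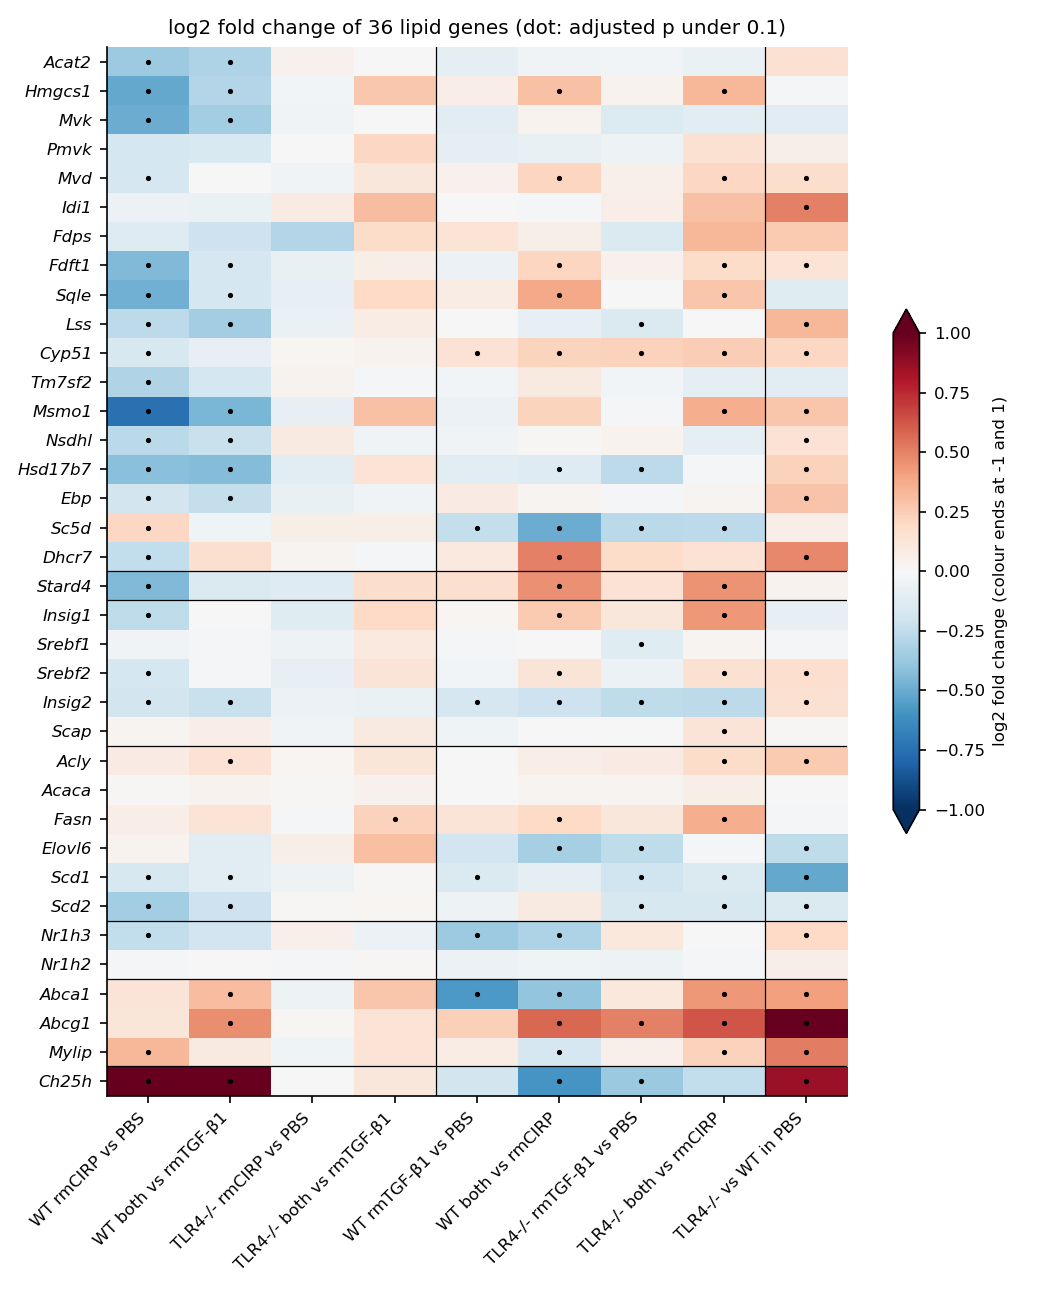
Log2 fold change (colour, red higher and blue lower, scale ending at -1 and 1) of the 36 genes (rows, lines between roles) in 9 comparisons (columns), with a dot where the adjusted p was under 0.1. Most sterol enzymes are blue in the first 2 columns, for rmCIRP in WT cells, and the third column, for rmCIRP in cells labelled TLR4-/-, holds no dot.

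The genotype labels differed before any treatment. With PBS, 18 of the 36 genes were higher and 3 lower in libraries labelled TLR4-/- than in WT libraries, where 47.1% of all genes passed, 23.2% higher and 24% lower. Abcg1 read 136, 177 and 179 normalized counts in WT libraries and 435, 391 and 344 in the others, 2.38-fold higher (log2 fold change 1.25 ± 0.12, SE, adjusted p = 2.46e-08). Ch25h read 1879, 2888 and 2453 and 4441, 4614 and 4131, 1.82-fold higher (log2 fold change 0.87 ± 0.12, SE, adjusted p = 5.68e-06), and Mylip 348, 344 and 357 and 519.6, 495 and 489, 1.43-fold higher (log2 fold change 0.52 ± 0.06, SE, adjusted p = 2.27e-07). None of these groups overlapped. The 4 LXR targets had a median log2 difference of 0.46 with 3 higher, and 10 of the 20 sterol-class genes were higher and none lower, with a median of 0.15. Idi1 and Dhcr7 were 1.42-fold and 1.39-fold higher. The genes lower in libraries labelled TLR4-/- were of fatty acid synthesis: Scd1, from 6209.6, 6409 and 6307 to 4662, 4492 and 4148 (log2 fold change -0.51 ± 0.04, SE, adjusted p = 1.03e-09), Elovl6 and Scd2. Neither Elovl6 nor Scd2 was called without the first WT PBS library or the third labelled TLR4-/- with PBS, and Scd2 was also not called without the third WT PBS library or the second labelled TLR4-/- with PBS. All 13 macrophage markers were also higher in these libraries, with a median log2 difference of 2.19, and 3 of 4 endothelial markers were lower, and their part in the levels of Abcg1, Ch25h and the other genes was not tested. Each genotype was 1 pool of cells, so that the genotype and the pool cannot be told apart.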

How the data were processed

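Total RNA of pulmonary fibroblasts was sequenced by the authors (TruSeq Stranded Total RNA, NextSeq). Reads were aligned with STAR2 to mouse GENCODE, and the authors deposited the counts that ht-seq gave for each gene symbol, without normalization, as 1 table for each of 24 libraries. The submitters' processing notes name FastQC, HTSeq and the build NCBIM37. The strand option and tool versions are not given in the sources used here. The tables hold no coordinates. Between 14.5% and 16.1% of each table's reads stood in the 5 tally lines that name no gene, and these lines were left out.

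Libraries were grouped by their labels. Genes were tested in R 4.3.3 with edgeR 4.0.16: filterByExpr by condition kept 16258 of 34285 genes with a count, libraries were scaled by TMM, all 24 libraries entered 1 model with 8 condition means, and the quasi-likelihood F-test was applied to 12 contrasts. Adjustment was Benjamini-Hochberg over all genes tested, with calls at an adjusted p under 0.1, the study's threshold. The step was run on counts simulated for the WT libraries with PBS and with rmCIRP only, with the spread that edgeR had estimated. The model of all 24 libraries and the other contrasts were not tried in this way. Normalized counts are counts divided by DESeq2 1.42.0 size factors. The SE was taken as the absolute log2 fold change over the root of the F statistic. Exon lengths came from GENCODE and promoter windows from RefSeq (GRCm38.p6), matched by symbol.

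The 36 genes, the further lists and the motifs were chosen with earlier results of these data known. Any of the 36 could be named. Values per library are given for the called genes with the largest changes in each role in WT cells with rmCIRP, in the rmTGF-β1 and genotype comparisons, and for others that a result turned on. At most 3 further genes per list are named, those with the largest called change with rmCIRP in WT cells. The alternatives tried were DESeq2, RLE scaling, no filter, a mean count of at least 10, a replicate block, a fit of only the libraries compared, each library left out in turn and, chosen after seeing the data, both libraries numbered 3 and labelled TLR4-/- that had received rmTGF-β1 left out.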

Additional observations from a re-analysis of the deposited data

Results flagged for a closer look

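For 18 of the 36 genes the response to rmCIRP differed between the genotype labels by edgeR's quasi-likelihood test of the difference, at an adjusted p under 0.1, where 31.4% of all genes passed. Values are the log2 response in libraries labelled TLR4-/- minus that in WT libraries. Among sterol enzymes, the differences were 0.66 for Msmo1, 0.48 for Hmgcs1, 0.46 for Mvk, 0.41 for Acat2, 0.40 for Sqle, 0.36 for Fdft1, 0.36 for Nsdhl, 0.33 for Tm7sf2, 0.31 for Hsd17b7, 0.28 for Dhcr7, 0.19 for Lss and 0.18 for Cyp51. Sc5d differed by -0.15. The sterol carrier Stard4 differed by 0.31, the desaturase Scd2 by 0.36 and Nr1h3, which encodes LXRα, by 0.30. Mylip differed by -0.38 and Ch25h by -1.48. DESeq2 called 14 of the 36 genes in this comparison. The calls for Tm7sf2 and Dhcr7 were lost under DESeq2, RLE scaling, no filter, a mean count of at least 10 and a fit of only the libraries compared, and Tm7sf2 also with a replicate block (adjusted p = 0.106). The calls for Lss and Nr1h3 were lost with DESeq2 and with no filter, that for Lss also with a mean count of at least 10 and a fit of only the libraries compared, and those for Cyp51 and Sc5d with no filter. When 1 of the 12 libraries was left out in turn, the call was lost in 9 of the 12 cases for Tm7sf2 and Dhcr7, in 8 for Lss and Stard4, in 7 for Cyp51 and Nr1h3, and in 1 for Sc5d (without the third WT PBS library).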

How the results depend on the processing

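The total counts of called genes, higher and lower together, for rmCIRP against PBS, for both proteins against either alone in WT cells, for both proteins against rmCIRP in libraries labelled TLR4-/-, for the genotypes with PBS and for the genotype difference in the rmCIRP response stayed within 1.5 times under every alternative tried. Counts by direction moved more, as for the lower calls of both proteins against rmCIRP in WT cells, 4 to 7 in place of 8 when 1 library was left out. Both proteins against rmTGF-β1 in libraries labelled TLR4-/- did not: the count of 1 was 7 with DESeq2, 2 with RLE scaling, 8 with no filter, 2 with a mean count of at least 10, 0 with only the libraries compared, 2 with both libraries numbered 3 and given rmTGF-β1 left out, and 0 to 12 when 1 library was left out. The interaction in WT cells, with 0 called, gave 1 with DESeq2, 3 with no filter and 2 with only the libraries compared. The genotype difference in the rmTGF-β1 response, with 0 called, gave 1 with no filter, 1 with both libraries numbered 3 left out and 0 to 2 when 1 library was left out. rmTGF-β1 against PBS gave 3 to 5 calls in WT cells and 6 to 11 in libraries labelled TLR4-/- when 1 library was left out. The cause was not tested.

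The named estimates that reversed direction were near 0. When 1 library was left out, the log2 fold change with rmCIRP against PBS in libraries labelled TLR4-/- ran from -0.076 to 0.0236 for Hmgcs1, -0.0803 to 0.0176 for Mvk, -0.143 to 0.0049 for Msmo1 and -0.0633 to 0.0311 for Ch25h. That of Srebf1 in WT cells ran from -0.0442 to 0.0111, and that of Abca1 with rmTGF-β1 in libraries labelled TLR4-/- from -0.0519 to 0.218, and was -0.052 without both libraries numbered 3.

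Libraries of different conditions share replicate numbers, whose meaning the labels do not give. The mean correlation of deviations over 84 pairs of same-numbered libraries was 0.012, and 12 of 24 libraries lay closest to their own number. For both proteins against rmTGF-β1 in libraries labelled TLR4-/- the 3 pairs averaged 0.205, from 0.064 to 0.369. With the replicate block, both proteins against rmTGF-β1 in libraries labelled TLR4-/- gave 6 calls, and every other comparison of the 36 genes stayed within 1.5 times its count. Of the 36 genes Fdps had the lowest mean count, 63.6. How depth bears on the calls was not tested.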

Other observations

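Oxysterol genes outside the 36 also differed between the genotype labels with PBS. Gpr183 averaged 12.7 ± 6.4 normalized counts in WT libraries and 69.7 ± 17.8 in libraries labelled TLR4-/- (SD, n = 3), and Cyp27a1 averaged 41.9 ± 9.39 and 125 ± 3.96. Cyp7b1 went the other way, with 362 ± 40.2 and 146 ± 39.4. The log2 differences were 2.44 ± 0.29, 1.57 ± 0.16 and -1.31 ± 0.14 (SE), all past the threshold of edgeR's test. With rmCIRP the log2 responses in WT libraries were -2.81 for Gpr183, -0.94 for Cyp27a1 and 1.64 for Cyp7b1, and those in libraries labelled TLR4-/- were -0.08, -0.15 and -0.09. The difference between the responses passed for all 3 genes, at 2.73 ± 0.66, 0.79 ± 0.26 and -1.73 ± 0.19 (SE). The 13 macrophage markers were higher in libraries labelled TLR4-/- too, and their part in these levels was not tested.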
